A study of Homo sapiens with 6 samples.

Results

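The genes described here are the WNT ligands, their Frizzled (FZD) receptors and LRP5/6 co-receptors, the secreted DKK and SFRP antagonists, and a small group of nuclear effectors and feedback genes of the same pathway. They were chosen by symbol alone, as protein-coding genes of the WNT, FZD, DKK and SFRP families plus 11 named genes (AXIN2, NKD1, NKD2, LEF1, TCF7, RNF43, ZNRF3, NOTUM, LGR5, LRP5 and LRP6). This gave 48 genes of 60617 gene IDs, of which 31 passed the filter on low values and were tested among 16560 genes, while 6 (WNT1, WNT3A, WNT8A, WNT9B, FZD10 and DKK4) were at 0 in every library. RNA-seq had been run on 2 libraries each of PBRT15 cells and PBRT16 cells in 500 nM PLX8394, and of 1205LuTR parental cells in DMSO. 1205Lu is an established human melanoma cell line, and all 3 groups are labelled as its TR derivative, which by the study's methods was modified with a GAL4-ELK1 reporter. PLX8394 is a BRAF inhibitor of the paradox breaker class, and each PBRT line was a single culture line established from an in vivo tumor resistant to that drug, labelled resistant, while the parental cells were labelled sensitive. Both PBRT lines were held in drug and the parental cells were not, so line and drug cannot be told apart, and no label says whether replicate libraries were grown as separate cultures. P-values therefore measure only the spread between these libraries, which may be technical.

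The libraries summed to 27878000 to 29580800 in the deposited normalized unit, mitochondrial genes took 4.09 to 4.53% of that sum in the PBRT libraries and 6.15 to 6.30% in the parental ones, and replicates correlated at 0.980 to 0.982 on the log2 scale. The cells went only in part with their melanoma label. TYR was at 0, and MLANA, PMEL, DCT and TYRP1 were at most 29.4 in all 6 libraries. In parental cells S100B had 10992 and 8075 and ERBB3 had 1291 and 1089. In the PBRT libraries these were at most 1.67 and 4.99. SOX10 was at most 1.49 in the 4 PBRT libraries, against 4360.5 and 4103 in parental cells. The 10 melanocytic markers summed to 1473 and 1478 in PBRT15 and to 2664 and 2639.6 in PBRT16, against 17471 and 14133 in parental cells, with 1 higher and 3 lower in PBRT15 and 1 higher and 4 lower in PBRT16. The 1 higher in both was MITF, the melanocyte lineage factor, with 823 and 927 in PBRT15 and 2209.5 and 2159 in PBRT16, against 109 and 113 in parental cells, and PAX3 was at 421 to 731 in all 6 libraries. The 10 fibroblast markers summed to 136610 and 147018 in PBRT15 and to 19004 and 25336 in PBRT16, against 7094 and 6169.5 in parental cells. LUM, a defining fibroblast marker, was at most 4.12 anywhere, and the immune markers CD3E and PTPRC were at most 2.72. CD68, an immune marker that other cells also express, was at 819 to 3118 in all 6 libraries and was higher in both lines (log2 difference 1.27 in PBRT15, limma, adjusted p = 0.0273, and 1.35 in PBRT16, limma, adjusted p = 0.0229). In PBRT15, 8 of the 10 fibroblast markers were higher than in parental cells. In PBRT16, 4 were higher and 2 were lower. Over all tested genes, 21.6% were higher and 19.5% lower in PBRT15, and 21.1% and 19.0% in PBRT16. LUM, MLANA, TYR and TYRP1 did not pass the filter on low values and were not tested. The part of the fibroblast markers in the results below was not tested, and in bulk RNA fewer cells of a type cannot be told apart from less RNA per cell.

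As background, WNT proteins are secreted lipid-modified ligands that bind Frizzled receptors. Together with LRP5 or LRP6 they stop the destruction of beta-catenin, which then acts with the LEF/TCF factors on target genes. AXIN2, NKD1, RNF43, ZNRF3 and NOTUM are targets that in turn limit the signal, so they are widely read as feedback markers of this canonical branch. WNT5A is the best known ligand of the branch that works without beta-catenin, through ROR and Frizzled receptors, and in melanoma it is known for its tie to invasive, less differentiated cells.

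Among the 31 genes tested, 12 were higher and 7 lower in PBRT15 than in parental cells (limma, adjusted p at most 0.05), where 21.6% of all tested genes were higher and 19.5% lower. In PBRT16, 13 were higher and 10 lower, where 21.1% of all tested genes were higher and 19.0% lower. Between PBRT16 and PBRT15, 4 were higher and 13 lower in PBRT16, where 7.51% of all tested genes were higher and 8.27% lower. Both comparisons with parental cells share the same 2 parental libraries. The median log2 difference of the 31 genes was 0.24 in PBRT15 and 0.08 in PBRT16 relative to parental cells, where all tested genes had medians of -0.00527 and -0.00187, and it was -0.48 in PBRT16 relative to PBRT15, against 0.00024 over all tested genes. DKK2, NKD2 and WNT2 passed the filter on low values only through PBRT15, and NOTUM only through PBRT16, so a difference of that line was built into their being tested. Without these 4 genes, 9 of 27 were higher and 7 lower in PBRT15, 11 were higher and 9 lower in PBRT16, and 3 were higher and 10 lower in PBRT16 relative to PBRT15, with medians of 0.13, -0.01 and -0.47. With a required fold of 2, 12 were higher and 4 lower in PBRT15, where 13.8% of all tested genes were higher and 9.85% lower. DKK2 and WNT2 were not tested without a PBRT15 library, and NOTUM was not tested without a PBRT16 library. The counts with such a library left out therefore also cover fewer genes. Leaving out any library also lowers the degrees of freedom for every gene. The shares of all tested genes in those fits are not given, so falls in the counts are not read as a trait of these genes. Without either parental library only 2 genes were lower in PBRT15, and without PBRT15 replicate 1 there were 4. In the comparison of the lines, the 13 genes lower in PBRT16 became 8 without PBRT15 replicate 1, PBRT15 replicate 2 or PBRT16 replicate 1, and the 4 higher ones became 1 without PBRT15 replicate 1 and 0 without either PBRT16 library.

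The promoters of 4 genes with large changes are printed, 3 that were higher and 1 that was lower in both lines. They show the TCF/LEF letters near 1 RefSeq start of each gene, and other starts were not searched. For WNT5A, WNT3 and LEF1 this start lies inside the gene coordinates used elsewhere here, which for WNT3 are chr17:46762506-46833154. They run from 250 bases before to 50 bases after the RefSeq start (GRCh38.p14, gene strand, 5′ to 3′): WNT5A at chr3:55487257-55487556 (minus strand), WNT3 at chr17:46818643-46818942 (minus), DKK1 at chr10:52314031-52314330 (plus) and LEF1 at chr4:108166252-108166551 (minus). Capitals mark a match to the TCF/LEF letters CTTTGAA, to the variant CTTTGAT, to the variant CTTTGTA or to the variant CTTTGTT, searched on both strands.
WNT5A: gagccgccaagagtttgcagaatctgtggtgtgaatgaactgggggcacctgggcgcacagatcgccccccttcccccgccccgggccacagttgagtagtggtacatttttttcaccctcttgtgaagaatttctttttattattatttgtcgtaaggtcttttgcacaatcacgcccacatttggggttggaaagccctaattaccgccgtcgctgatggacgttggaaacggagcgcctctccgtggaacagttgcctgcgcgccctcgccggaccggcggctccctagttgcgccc
WNT3: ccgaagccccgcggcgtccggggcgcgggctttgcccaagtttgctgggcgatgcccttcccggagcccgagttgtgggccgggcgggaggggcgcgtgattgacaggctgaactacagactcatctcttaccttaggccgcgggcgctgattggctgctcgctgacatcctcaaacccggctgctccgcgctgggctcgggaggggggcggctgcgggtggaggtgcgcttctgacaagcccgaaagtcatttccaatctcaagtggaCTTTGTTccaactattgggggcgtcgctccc
DKK1: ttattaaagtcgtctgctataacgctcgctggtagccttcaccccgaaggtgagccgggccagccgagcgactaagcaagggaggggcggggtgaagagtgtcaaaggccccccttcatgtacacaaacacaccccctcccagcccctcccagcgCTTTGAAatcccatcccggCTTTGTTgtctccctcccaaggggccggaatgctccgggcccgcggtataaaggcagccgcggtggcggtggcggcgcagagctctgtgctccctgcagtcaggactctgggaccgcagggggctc
LEF1: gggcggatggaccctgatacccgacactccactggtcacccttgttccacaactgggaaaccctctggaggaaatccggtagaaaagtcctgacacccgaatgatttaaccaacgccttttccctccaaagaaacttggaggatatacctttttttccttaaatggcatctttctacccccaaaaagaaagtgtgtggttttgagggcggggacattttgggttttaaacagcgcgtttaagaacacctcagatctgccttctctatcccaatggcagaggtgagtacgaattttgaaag
DKK1 held 2 matches, starting 95 and 76 bases before the start, and WNT3 held 1 at 19 bases after it, while these windows of WNT5A and LEF1 held none. Of the 48 genes, 30 had a window in the set of RefSeq promoters used here. Of these 30 windows, 2 (6.67%) held such a match, against 13.75% of 35116 promoters of the same length. The genes without a window, which were not searched, included the feedback genes AXIN2, NKD1, NOTUM and ZNRF3. The AP-1 letters TGACTCA, searched on both strands, were in 0 of the 30 windows and in 4.95% of all promoters. An observed to expected CpG ratio of at least 0.6 was found in 24 of 30 windows, against 48.9% of all promoters. The 30 windows were 1 per protein-coding gene. The 35116 promoters were limited neither to protein-coding genes nor to 1 per gene, so these shares compare unlike sets. A match in letters is a description and not a bound site.

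Among the 19 ligands, 8 were tested. WNT5A, WNT5B and WNT3 were higher in both resistant lines, and WNT7B, a ligand known for canonical signaling, was lower in both. WNT5A (chr3:55465715-55490539) had 15390.1 and 14115 in PBRT15 and 8854 and 9186 in PBRT16, against 1253 and 1209 in parental cells. The 3 groups did not overlap, PBRT15 was highest, and the log2 difference was 3.58 ± 0.11 (SE) in PBRT15 (limma, adjusted p = 0.000121) and 2.87 ± 0.11 in PBRT16 (limma, adjusted p = 0.000196). WNT5B, the close relative of WNT5A, had 1401 and 985 in PBRT15 and 1616 and 1316 in PBRT16, against 141 and 117 in parental cells. Both lines lay above parental cells and overlapped each other, with log2 differences of 3.18 ± 0.23 in PBRT15 (limma, adjusted p = 0.000968) and 3.50 ± 0.23 in PBRT16 (limma, adjusted p = 0.00074). WNT3 had 107 and 125 in PBRT15 and 143 and 138 in PBRT16, against 18.3 and 20.4 in parental cells, which is 2.53 ± 0.13 and 2.80 ± 0.13 above parental cells on the log2 scale.

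WNT7B (chr22:45920366-45977162) had 788 and 329 in PBRT15 and 39.4 and 35.3 in PBRT16, against 2140.5 and 2575 in parental cells. The parental libraries were highest and PBRT16 lowest, with log2 differences of -2.20 ± 0.43 in PBRT15 (limma, adjusted p = 0.0153) and -5.94 ± 0.43 in PBRT16 (limma, adjusted p = 0.000929). In PBRT15 this call was lost without parental replicate 1 (adjusted p = 0.0592) or parental replicate 2 (adjusted p = 0.0718). A further pair of ligands, WNT9A and WNT2B, passed the test in PBRT16 and not in PBRT15. WNT9A had 263 and 338 in PBRT16, against 45.1 and 33.6 in parental cells (log2 difference 2.91 ± 0.40, limma, adjusted p = 0.00574), and had 27.4 and 59.2 in PBRT15 (0.05 ± 0.40, adjusted p = 0.93). WNT2B had 232 and 130 in PBRT16, against 39.2 and 55.5 in parental cells (1.87 ± 0.41, limma, adjusted p = 0.0225), a call lost without parental replicate 1 (adjusted p = 0.102), parental replicate 2 (0.0566) or PBRT16 replicate 1 (0.0811). In PBRT15 WNT2B had 47.7 and 83.8, and the difference of PBRT16 from PBRT15 did not pass (1.44 ± 0.41, limma, adjusted p = 0.0819).

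WNT2 had 11.5 and 12.6 in PBRT15 and 0.90 and 0 in PBRT16, and was listed at 0 in both parental libraries, so no fold against parental cells is given. WNT10B, which passed no test, had 83.4 and 89.5 in PBRT15 and 53.7 and 71.9 in PBRT16, against 50.2 and 68.3 in parental cells. The remaining ligands were low. WNT10A reached 20.4 in 1 parental library, and WNT4, WNT6, WNT7A, WNT8B, WNT11 and WNT16 stayed at or below 9.52 everywhere. The ligands at 0 included WNT1, WNT3A and WNT9B, each of which lies beside another ligand that was read: WNT9B starts 46 bases from WNT3 on chromosome 17, WNT1 lies 6.59 kb from WNT10B on chromosome 12, and WNT3A lies 59.1 kb from WNT9A on chromosome 1.

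**Figure D1:**
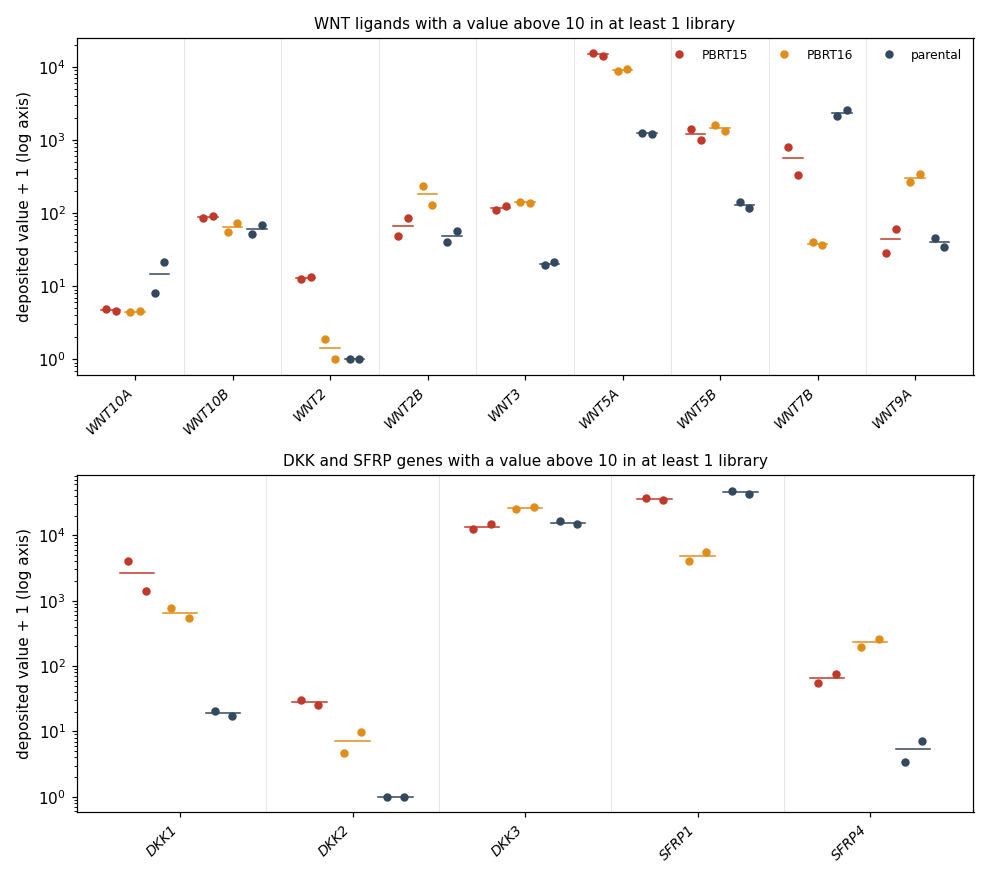
Deposited normalized value + 1 on a log axis for each library of PBRT15, PBRT16 and parental cells. Top, WNT ligands above 10 in at least 1 library. Bottom, DKK and SFRP genes by the same rule. Points are libraries and bars are means of 2; WNT5A, WNT5B, WNT3 and DKK1 of both lines sit above both parental libraries, and WNT7B sits below them.

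Per kb of GENCODE transcript, the most abundant ligand was WNT5A in both lines and WNT7B in parental cells. WNT5A made up 74.2 and 79.0% of the ligand sum per kb in PBRT15 and 62.9 and 67.1% in PBRT16, against 24.6 and 21.2% in parental cells. WNT7B made up 5.62 and 2.72% in PBRT15 and 0.41 and 0.38% in PBRT16, against 62.1 and 66.7% in parental cells. The sum itself was 3553 and 3060 per kb in PBRT15 and 2410 and 2345 in PBRT16, against 874 and 979 in parental cells. No SE or test is given for these shares, whose parts add to a fixed total. All values per kb here assume that the deposited values were not already adjusted for length, which is not known.

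**Figure D2:**
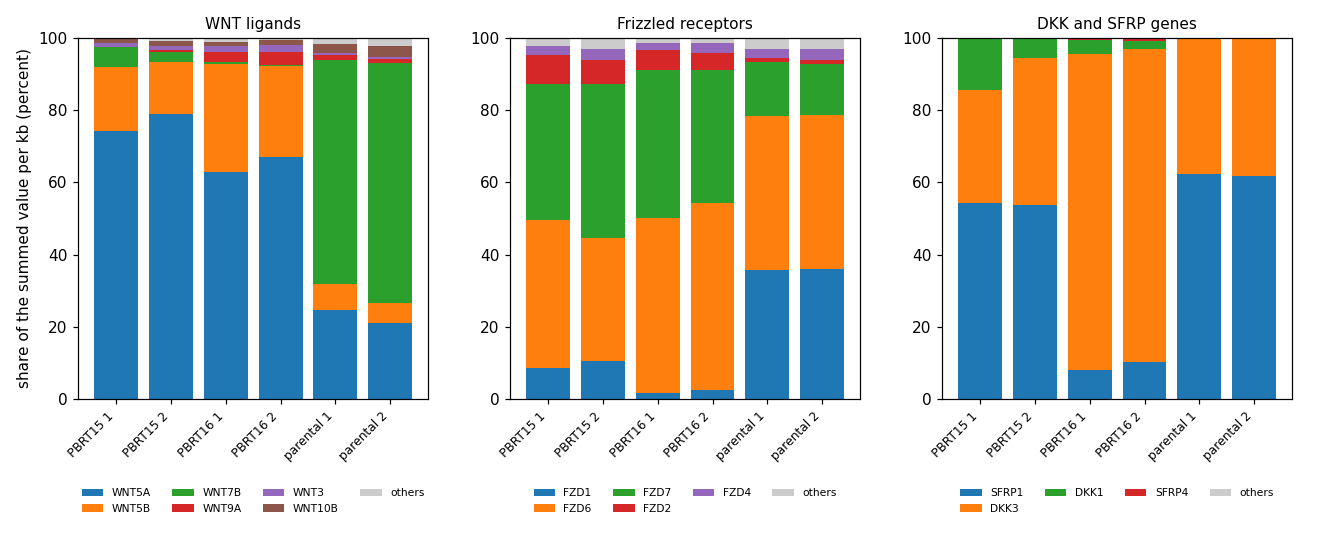
Share of the summed value per kb (percent) of each gene within the ligands, the Frizzled receptors and the secreted antagonists, with 1 stacked bar per library of PBRT15, PBRT16 and parental cells. WNT5A takes 62.9 to 79.0% of the ligand bars of the PBRT lines and WNT7B takes 62.1 and 66.7% of the parental bars; DKK3 takes 87.7 and 86.5% of the antagonist bars of PBRT16.

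Of the 8 secreted antagonists 5 were tested. DKK1, which blocks LRP5/6, was higher in both lines, and SFRP1, a soluble Frizzled-like decoy, was lower in PBRT16. DKK1 (chr10:52314281-52318042) had 3973 and 1416 in PBRT15 and 778 and 533 in PBRT16, against 19.8 and 16.2 in parental cells. The groups did not overlap, although both PBRT15 libraries stood far apart, and the log2 difference was 6.97 ± 0.52 in PBRT15 (limma, adjusted p = 0.00106) and 5.09 ± 0.52 in PBRT16 (limma, adjusted p = 0.00247). SFRP4, another secreted Frizzled-related protein, had 54.2 and 74.5 in PBRT15 and 196 and 262 in PBRT16, against 2.46 and 6.15 in parental cells, with log2 differences of 3.70 ± 0.40 and 5.52 ± 0.40. DKK2, listed at 0 in both parental libraries, had 28.9 and 24.7 in PBRT15 and 3.61 and 8.77 in PBRT16.

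SFRP1 had 37750.3 and 34193 in PBRT15 and 4074 and 5647 in PBRT16, against 48297 and 42086 in parental cells. PBRT16 lay far below the other 4 libraries, with log2 differences of -3.23 ± 0.20 in PBRT16 (limma, adjusted p = 0.000602) and -0.33 ± 0.20 in PBRT15 (limma, adjusted p = 0.245). DKK3, a divergent family member that is not known to block LRP6, had 25378 and 26667 in PBRT16, against 16475 and 14767 in parental cells (0.74 ± 0.14, limma, adjusted p = 0.0155), and had 12284 and 14640.5 in PBRT15. That call was lost without parental replicate 2 (adjusted p = 0.0718), PBRT16 replicate 1 (0.0601) or PBRT16 replicate 2 (0.0757). Per kb, SFRP1 was 54.4 and 53.7% of the antagonist sum in PBRT15 and 7.96 and 10.4% in PBRT16, against 62.3 and 61.7% in parental cells. SFRP2 and SFRP5 were at most 2.70.

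Of the 10 Frizzled receptors 9 were tested, and 3 of them changed strongly in both lines: FZD2 and FZD7 were higher and FZD1 was lower. FZD1 (chr7:91264433-91271326) had 1677 and 2005 in PBRT15 and 370.1 and 534 in PBRT16, against 6659 and 5930.4 in parental cells. The 3 groups did not overlap, with log2 differences of -1.78 ± 0.22 in PBRT15 (limma, adjusted p = 0.00417) and -3.82 ± 0.22 in PBRT16 (limma, adjusted p = 0.000516). FZD2, a receptor that WNT5A can use, had 845 and 705 in PBRT15 and 712 and 520.2 in PBRT16, against 101 and 96.7 in parental cells. Its log2 differences were 2.95 ± 0.20 and 2.61 ± 0.20, and both lines overlapped each other. FZD7 had 4964 and 5435 in PBRT15 and 6427 and 5034 in PBRT16, against 1847 and 1544 in parental cells (log2 differences of 1.62 ± 0.18 in PBRT15 and 1.75 ± 0.18 in PBRT16).

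FZD6 was the most abundant receptor per kb in every library but PBRT15 replicate 2. Without division by length, FZD1 stood above it in both parental libraries (6659 and 5930.4). FZD7 then stood above it in both PBRT15 libraries (4964 and 5435) and in PBRT16 replicate 1 (6427). FZD6 had 6176 and 5759 in PBRT16, against 4279 and 3761 in parental cells (0.57 ± 0.16, limma, adjusted p = 0.0437), and had 4389 and 3528 in PBRT15 (-0.03 ± 0.16). This PBRT16 call was lost without any 1 of the parental or PBRT16 libraries (adjusted p 0.092 to 0.161). FZD4 passed neither test, with 561 and 589 in PBRT15 and 532 and 629 in PBRT16, against 506 and 543 in parental cells, and its 95% intervals were -0.22 to 0.48 in PBRT15 and -0.21 to 0.49 in PBRT16. FZD5 was lower in PBRT15 with 94.3 and 120.3, against 194 and 168 in parental cells (-0.75 ± 0.20, limma, adjusted p = 0.0344), and was lost without PBRT15 replicate 1 (adjusted p = 0.119), parental replicate 1 (0.139) or parental replicate 2 (0.0796). FZD9 was lower in PBRT16 with 10.8 and 5.63, against 16.2 and 23.4 in parental cells (-1.21 ± 0.33, limma, adjusted p = 0.0403), a call that ended without any 1 library other than PBRT16 replicate 1 (adjusted p 0.0694 to 0.151).

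FZD3 had 17.6 and 93.8 in PBRT15 and 86.4 and 77.8 in PBRT16, against 321 and 190 in parental cells. Both lines lay below parental cells but neither call passed (limma, adjusted p = 0.0568 in PBRT15 and 0.174 in PBRT16). In PBRT15 FZD3 passed with a pseudocount of 5 (limma, adjusted p = 0.0393) or a stricter filter on low values (0.0430). It also passed there with a trend in the prior spread (0.0162) or with protein-coding genes only (0.0479). It passed in PBRT15 without PBRT15 replicate 2 (adjusted p = 0.00838) and in PBRT16 without either PBRT15 library (0.0246 and 0.0242). FZD8 had 161 and 224 in PBRT15 and 44.3 and 70.4 in PBRT16, against 97.7 and 115 in parental cells, and passed in neither line with all libraries in the fit (limma, adjusted p = 0.0745 in PBRT15 and 0.0605 in PBRT16). In PBRT16 it passed without PBRT16 replicate 2 (adjusted p = 0.0452), with a pseudocount of 5 (0.0488), with a stricter filter on low values (0.0463) or with a trend in the prior spread (0.0402). FZD7 took 37.8 and 42.7% of the receptor sum per kb in PBRT15 and 41.0 and 36.7% in PBRT16, against 15.0 and 14.1% in parental cells. FZD1 took 8.48 and 10.5% in PBRT15 and 1.57 and 2.59% in PBRT16, against 35.9 and 36.1% in parental cells.

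The co-receptors LRP5 and LRP6 were higher in PBRT15 and near parental levels in PBRT16. LRP5 (chr11:68312591-68449275) had 2611 and 3809 in PBRT15 and 307 and 367 in PBRT16, against 264 and 489 in parental cells. PBRT15 stood clear of the other 4 libraries, with a log2 difference of 3.13 ± 0.36 (limma, adjusted p = 0.00329), and in PBRT16 it was -0.10 with a 95% interval of -1.02 to 0.83. LRP6 (chr12:12116025-12267044) had 7307 and 6796 in PBRT15 and 3273 and 3448 in PBRT16, against 3442 and 3335 in parental cells. The difference was 1.06 ± 0.11 in PBRT15 (limma, adjusted p = 0.00273) and -0.01 in PBRT16, with a 95% interval of -0.31 to 0.28. The 14 tested genes within 500 kb of LRP5 had a median log2 difference of 0.27 in PBRT15 and 0.24 in PBRT16, and the 9 within 500 kb of LRP6 had -0.07 and -0.21. The fibroblast markers did not move alike. COL1A2 had 38539.6 and 41287 in PBRT15 and 19.9 and 15.4 in PBRT16, against 14.0 and 23.2 in parental cells. COL1A1 had 60705 and 67057 in PBRT15 and 9942 and 14432 in PBRT16, against 13.9 and 32.7 in parental cells. PDGFRB had higher values in PBRT16 (5447 and 6253) than in PBRT15 (3023 and 3557). The part of these markers in the results was not tested.

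**Figure D3:**
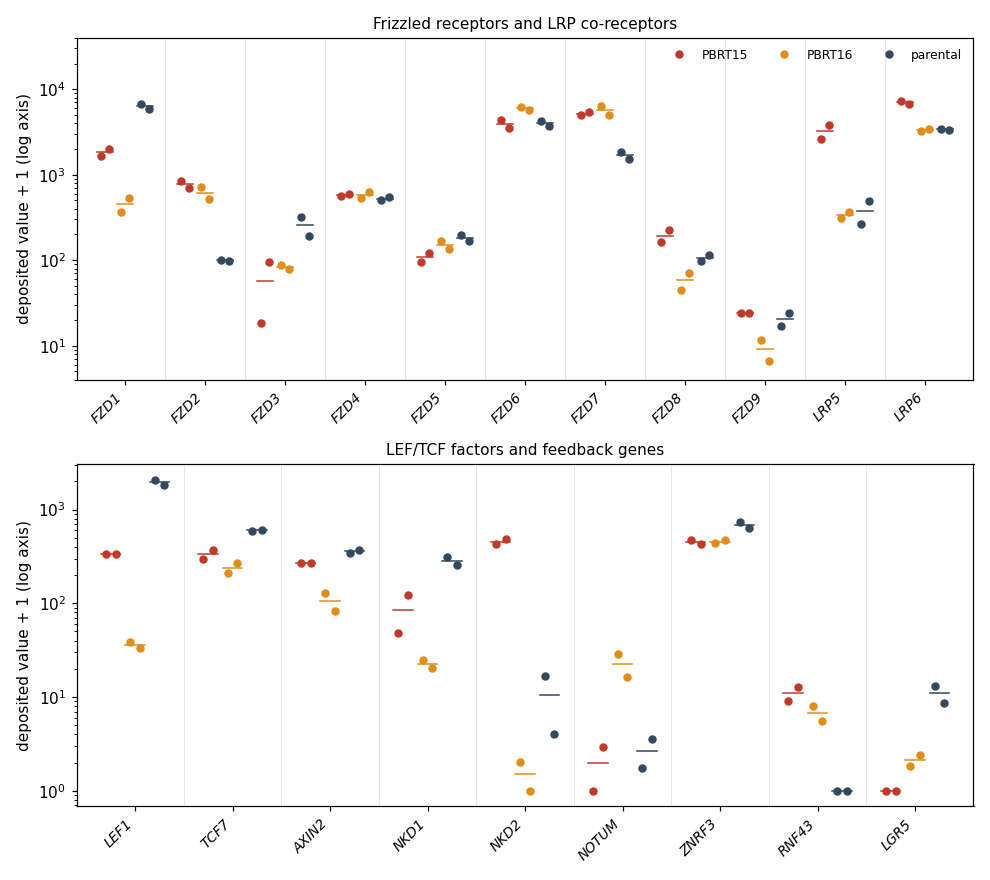
Deposited normalized value + 1 on a log axis for each library of PBRT15, PBRT16 and parental cells. Top, FZD receptors and LRP co-receptors. Bottom, LEF/TCF factors and feedback genes. Points are libraries and bars are means of 2; FZD1 and LEF1 step down through PBRT15 and PBRT16 below parental cells, and LRP5 and NKD2 stand high in PBRT15 alone.

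Both LEF/TCF factors were lower in both lines. LEF1 (chr4:108047545-108168956) had 334 and 336 in PBRT15 and 37.9 and 32.2 in PBRT16, against 2068 and 1831 in parental cells. The 3 groups were well apart, with log2 differences of -2.53 ± 0.14 in PBRT15 (limma, adjusted p = 0.000448) and -5.76 ± 0.14 in PBRT16 (limma, adjusted p = 6.7e-05). The 8 tested genes within 500 kb of LEF1 had medians of 0.00 and -0.12. TCF7, which encodes TCF1, had 297 and 367 in PBRT15 and 209 and 265 in PBRT16, against 595 and 609 in parental cells (log2 differences of -0.86 ± 0.18 in PBRT15 and -1.35 ± 0.18 in PBRT16). The PBRT15 call of TCF7 (limma, adjusted p = 0.0188) was lost without parental replicate 1 (0.0760), parental replicate 2 (0.0777) or PBRT15 replicate 1 (0.0710).

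Of the 7 feedback genes 5 were tested, and 4 of these were lower in PBRT16, where 19.0% of all tested genes were lower. The PBRT16 calls of NKD2 and ZNRF3 among them did not hold when single libraries were left out, as given with their values. AXIN2, a scaffold of the beta-catenin destruction complex and a direct canonical target, had 269 and 267 in PBRT15 and 128 and 80.9 in PBRT16, against 345 and 373 in parental cells. It was lower in PBRT16 (log2 difference -1.81 ± 0.24, limma, adjusted p = 0.00483), while the difference in PBRT15 was -0.42 ± 0.24 (limma, adjusted p = 0.215). NKD1, an inhibitor that binds Dishevelled, had 47.0 and 121 in PBRT15 and 23.8 and 19.5 in PBRT16, against 308 and 254 in parental cells. It was lower in PBRT16 (-3.64 ± 0.46, limma, adjusted p = 0.00448) and in PBRT15 (-1.87 ± 0.46, limma, adjusted p = 0.0302). The PBRT15 call was lost without parental replicate 1 (0.122), parental replicate 2 (0.0883), PBRT16 replicate 1 (0.0542) or PBRT16 replicate 2 (0.0537).

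NKD2, the relative of NKD1, had 425 and 483 in PBRT15 and 1.02 and 0 in PBRT16, against 15.7 and 3.02 in parental cells. Both PBRT15 libraries stood above the other 4. Outside PBRT15 only parental replicate 1 reached 10, so NKD2 was tested only because PBRT15 was high, and its difference there is given as values without a test. In PBRT16 the log2 difference was -2.53 ± 0.74 (limma, adjusted p = 0.0496). With a pseudocount of 5 it was -1.23 and did not pass (limma, adjusted p = 0.0731). It also did not pass with 4 libraries in the fit (0.0889) or without the filter on low values (0.105). The PBRT16 call was lost without any 1 library other than parental replicate 2 (adjusted p 0.0817 to 0.183), and with median-of-ratios (0.0502) or upper-quartile (0.0519) scaling. The 15 tested genes within 500 kb of NKD2 had medians of 0.25 in PBRT15 and 0.28 in PBRT16, with a range of -0.52 to 7.80 in PBRT15.

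ZNRF3, a ubiquitin ligase that removes Frizzled receptors, had 475 and 426 in PBRT15 and 437 and 472 in PBRT16, against 738 and 640 in parental cells. It was lower in both lines by nearly the same amount (log2 difference -0.61 ± 0.14 in PBRT15, limma, adjusted p = 0.0241, and -0.60 ± 0.14 in PBRT16, limma, adjusted p = 0.0257). Each of these calls ended without any 1 library of the line or of parental cells (adjusted p 0.0501 to 0.104 in PBRT15 and 0.0516 to 0.11 in PBRT16). RNF43, which has the same role as ZNRF3, had 7.99 and 11.9 in PBRT15 and 7.07 and 4.55 in PBRT16 and was listed at 0 in both parental libraries. NOTUM, which removes the lipid from WNT proteins, had 28.1 and 15.4 in PBRT16, against 0.73 and 2.57 in parental cells, and had 0 and 1.93 in PBRT15. It passed the filter only through PBRT16 and was not tested when a PBRT16 library was left out, so these values stand without a test. LGR5, the R-spondin receptor and stem cell marker, had 0 and 0 in PBRT15 and 0.84 and 1.40 in PBRT16, against 12.3 and 7.58 in parental cells, and did not pass the filter.

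**Figure D4:**
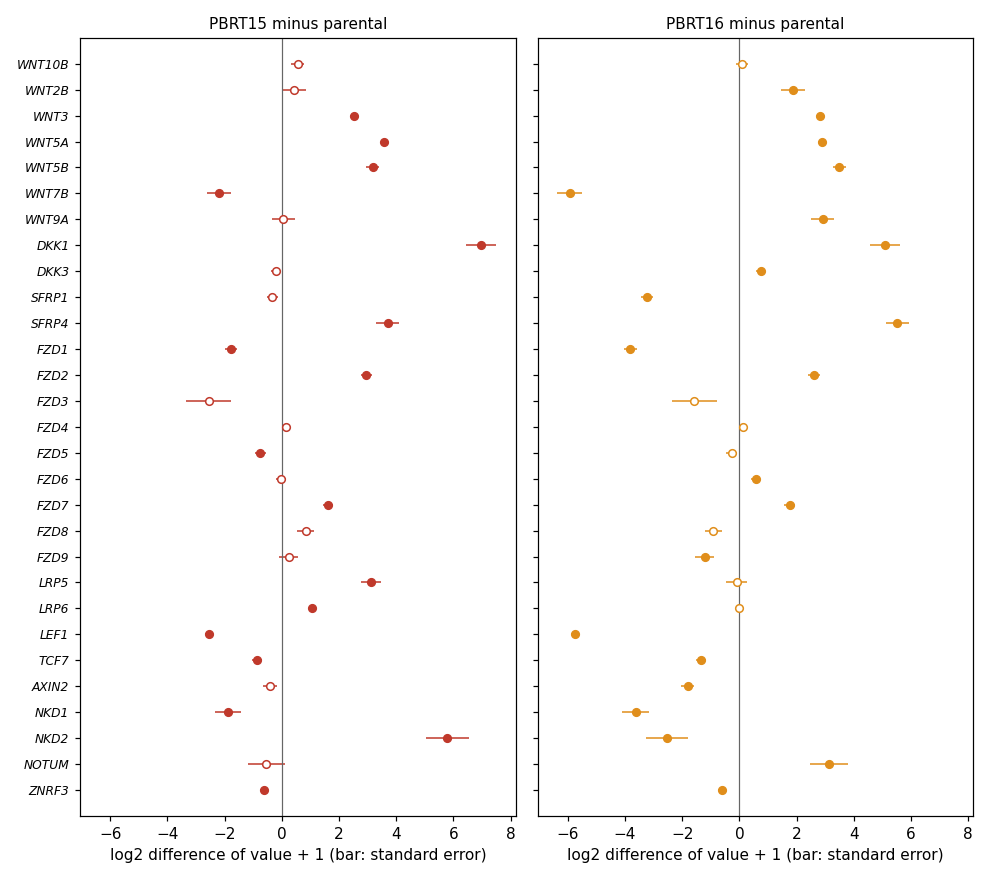
Log2 difference of value + 1 from parental cells for 29 tested genes, PBRT15 (left) and PBRT16 (right). Points are estimates, bars are 1 standard error, and filled points passed an adjusted p of 0.05; WNT2 and DKK2, listed at 0 in parental cells, are left out, and NKD2 (PBRT15) and NOTUM (PBRT16) were tested only because that line was high. WNT3, WNT5A, WNT5B, DKK1, SFRP4, FZD2 and FZD7 lie above 0 and WNT7B, FZD1, LEF1, TCF7, NKD1 and ZNRF3 below 0 with filled points in both panels.

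PBRT16 and PBRT15 differed in 17 of the 31 genes, against 15.8% of all tested genes, and 13 of the 17 were lower in PBRT16. Without the 4 genes that passed the filter through 1 line alone, 13 of 27 differed and 10 of these were lower. LEF1 was lower in PBRT16 by a log2 difference of -3.22 ± 0.14 (limma, adjusted p = 0.000828), SFRP1 by -2.90 ± 0.20 (limma, adjusted p = 0.00293) and FZD1 by -2.04 ± 0.22 (limma, adjusted p = 0.00889). LRP5 had 307 and 367 in PBRT16, against 2611 and 3809 in PBRT15, a log2 difference of -3.23 ± 0.36 (limma, adjusted p = 0.00927), and LRP6 differed by -1.07 ± 0.11 (limma, adjusted p = 0.00857). NKD2 had 1.02 and 0 in PBRT16, against 425 and 483 in PBRT15, and is given without a test since it passed the filter only through PBRT15. Without PBRT16 replicate 1 the calls of LRP5 (adjusted p = 0.0525) and LRP6 (0.0524) narrowly missed the threshold.

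The ligands WNT7B (-3.73 ± 0.43, limma, adjusted p = 0.01) and WNT5A (-0.71 ± 0.11, limma, adjusted p = 0.0224) were also lower in PBRT16 than in PBRT15. WNT9A (2.86 ± 0.40, limma, adjusted p = 0.0166), DKK3 (0.96 ± 0.14, 0.0191) and SFRP4 (1.82 ± 0.40, 0.0455) were higher. WNT7B and WNT9A lost their calls without either PBRT16 library (adjusted p 0.052 and 0.0546 for WNT7B, 0.0654 and 0.0797 for WNT9A). WNT5A (0.0633 to 0.104) and SFRP4 (0.104 to 0.172) lost theirs without any 1 of the 4 PBRT libraries, and DKK3 without PBRT15 replicate 1 or either PBRT16 library (0.0747 to 0.0923). NOTUM had 28.1 and 15.4 in PBRT16, against 0 and 1.93 in PBRT15, and passed the filter only through PBRT16. With PBRT16 replicate 1 or 2 left out, 0 genes were called higher in PBRT16 by limma, while 3 and 6 of them had an unadjusted p under 0.05.

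AXIN2 (-1.39 ± 0.24, limma, adjusted p = 0.0252), FZD8 (-1.75 ± 0.29, 0.0238) and FZD9 (-1.45 ± 0.33, 0.0482) were lower in PBRT16 as well. DKK2 had 3.61 and 8.77 in PBRT16, against 28.9 and 24.7 in PBRT15, and WNT2 had 0.90 and 0 in PBRT16, against 11.5 and 12.6 in PBRT15. Both passed the filter only through PBRT15 and are given without a test. AXIN2 lost its call without either PBRT15 library (0.101 and 0.0903) or either parental library (0.0533 and 0.0539). FZD8 lost its call without parental replicate 2 (0.0503), either PBRT15 library (0.0627 and 0.0856) or PBRT16 replicate 1 (0.0781), and FZD9 without any 1 library other than PBRT16 replicate 1 (0.0685 to 0.158). DKK1 (-1.88 ± 0.52, adjusted p = 0.0769) and NKD1 (-1.76 ± 0.46, adjusted p = 0.0663) did not pass, and passed without PBRT15 replicate 2 (DKK1, 0.032) or PBRT15 replicate 1 (NKD1, 0.0247). WNT3, WNT5B, FZD2, FZD4, FZD7 and ZNRF3 did not differ beyond their spread, with 95% intervals of -0.08 to 0.62 for WNT3, -0.29 to 0.91 for WNT5B, -0.85 to 0.17 for FZD2, -0.34 to 0.36 for FZD4, -0.33 to 0.60 for FZD7 and -0.34 to 0.37 for ZNRF3.

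**Figure D5:**
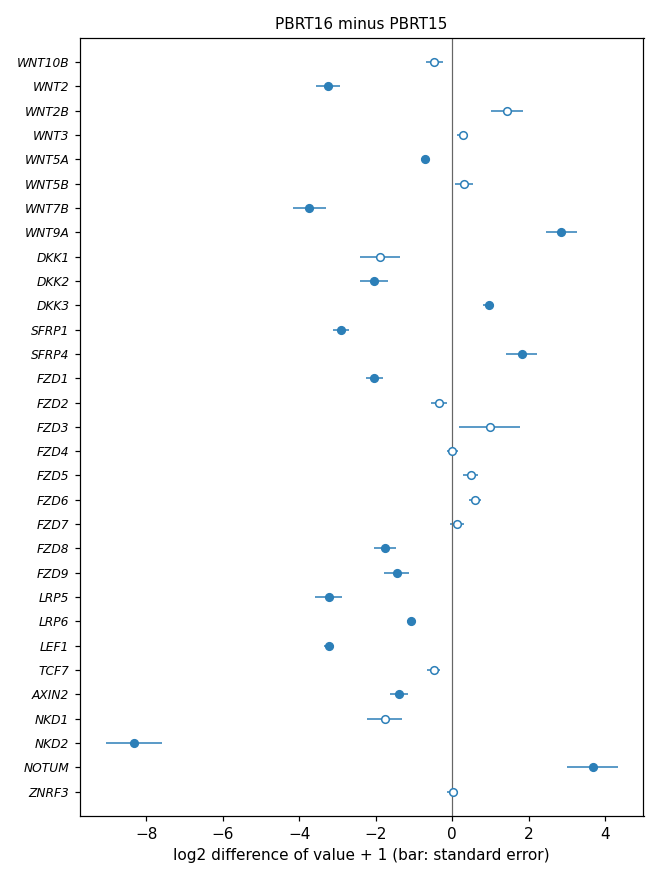
Log2 difference of value + 1, PBRT16 minus PBRT15, for the 31 tested genes. Points are estimates, bars are 1 standard error, and filled points passed an adjusted p of 0.05. LEF1, SFRP1, LRP5 and WNT7B lie below 0 and WNT9A above with filled points. DKK2, NKD2 and WNT2 passed the filter only through PBRT15 and NOTUM only through PBRT16, so their filled points are no separate result.

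A further 85 genes of the WNT pathway, grouped by role, were read in the same fit, and 72 were tested. In PBRT15 23 were higher and 14 lower than in parental cells, where 21.6% of all tested genes were higher and 19.5% lower, and in PBRT16 17 were higher and 12 lower, where the shares were 21.1% and 19.0%. The counts by role are to be read against these shares. No such share is given for the counts with a library left out. In PBRT15 there were 15 higher without PBRT15 replicate 2 and 14 without parental replicate 1, and 7, 6 and 5 lower without PBRT15 replicate 1, parental replicate 1 and parental replicate 2, and in PBRT16 there were 7 lower without parental replicate 2. Of 32 intracellular genes, 7 were higher and 6 lower in PBRT15, and 3 were higher and 5 lower in PBRT16. CTNNBIP1, an inhibitor of the beta-catenin and TCF interaction, had 195 and 412 in PBRT15 and 383 and 375 in PBRT16, against 2909 and 3503 in parental cells. TCF7L1, a TCF factor known mainly as a repressor, had 1101 and 1191 in PBRT15 and 761 and 774 in PBRT16, against 199 and 191 in parental cells. BCL9, a beta-catenin co-activator, was lower in both lines (log2 difference -0.79 ± 0.12 in PBRT15 and -1.79 ± 0.12 in PBRT16), as was TCF7L2 (-1.12 ± 0.20 and -1.05 ± 0.20). The TCF7L2 call was lost in PBRT15 without parental replicate 2 (adjusted p = 0.0569) or PBRT15 replicate 1 (0.0506), and in PBRT16 without parental replicate 2 (0.065).

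Of 15 tested genes of the branches that work without beta-catenin, 5 were higher and 5 lower in PBRT15, and 5 were higher and 2 lower in PBRT16. ROR2, a WNT5A receptor, had 270.3 and 404 in PBRT15 and 12.7 and 64.1 in PBRT16, against 3.56 and 3.62 in parental cells. It passed in PBRT15 (6.17 ± 0.75, limma, adjusted p = 0.00385) and in PBRT16 (2.70 ± 0.75, limma, adjusted p = 0.0424), there not without either parental library (0.138 and 0.13) or either PBRT15 library (0.0692 and 0.0684). ROR1 (1.31 ± 0.19 in PBRT15 and 1.75 ± 0.19 in PBRT16) and PTK7 (0.90 ± 0.13 and 1.16 ± 0.13), its pseudokinase relative in polarity signaling, were higher in both lines, while the polarity cadherin CELSR2 was lower in both (-1.41 ± 0.25 and -2.80 ± 0.25), in PBRT15 not without parental replicate 1 (adjusted p = 0.0576) or 2 (0.0566). DAAM1, a formin that acts behind Dishevelled, had 85.5 and 70.9 in PBRT15 and 745 and 542 in PBRT16, against 528 and 384 in parental cells, and was lower in PBRT15 (-2.52 ± 0.25, limma, adjusted p = 0.00216).

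Of 6 tested extracellular inhibitors outside the DKK and SFRP families, 4 were higher and 2 lower in PBRT15, and 2 were higher and 1 lower in PBRT16. IGFBP4 had 9298 and 8177 in PBRT15 and 8028 and 8432 in PBRT16, against 776 and 712 in parental cells, and APCDD1 had 340.02 and 454 in PBRT15 and 219 and 287 in PBRT16, against 31.7 and 27.2 in parental cells. Of 12 tested target genes outside the feedback group, 5 were higher and 0 lower in PBRT15 by limma (7 and 0 at an unadjusted p under 0.05), and 5 were higher and 2 lower in PBRT16. SP5, a canonical target, had 41.6 and 53.4 in PBRT15 and 42.2 and 36.5 in PBRT16, against 1.08 and 2.04 in parental cells. CCND1, which encodes cyclin D1, was higher in PBRT15 (0.52 ± 0.14, limma, adjusted p = 0.041) and lower in PBRT16 (-1.61 ± 0.14, limma, adjusted p = 0.00166), and the PBRT15 call ended without any 1 library other than PBRT15 replicate 2 (0.0749 to 0.155). AXIN2, NKD1, ZNRF3 and LEF1 had lower values in both lines than in parental cells, although AXIN2 did not pass in PBRT15 (limma, adjusted p = 0.215). Other feedback and target genes had higher values. Beside SP5, these included CD44 (log2 difference 1.95 ± 0.13 in PBRT15 and 2.15 ± 0.13 in PBRT16), PPARD (1.24 ± 0.13 and 0.91 ± 0.13) and the low RNF43. They also included JUN, with 2790 and 5520 in PBRT15 and 3732 and 5703 in PBRT16, against 1477 and 1880 in parental cells. JUN did not pass in PBRT15 (limma, adjusted p = 0.0634). NKD2 was high in PBRT15 alone and NOTUM in PBRT16 alone. Whether these genes moved as a set was not tested. Of 5 genes of WNT secretion and its glypican carriers, WLS, the carrier of WNT proteins to the cell surface, was lower in both lines (-0.63 ± 0.12 and -0.62 ± 0.12), a call lost in PBRT15 without parental replicate 2 or either PBRT15 library (adjusted p 0.0512 to 0.0638) and in PBRT16 without either parental library or PBRT16 replicate 1 (0.0517 to 0.0716). The glypican GPC4 was higher in both lines (1.33 ± 0.12 and 1.93 ± 0.12). Another glypican, GPC6, had 525 and 671 in PBRT15 and 102 and 104 in PBRT16, against 329 and 358 in parental cells. It was lower in PBRT16 (-1.72 ± 0.16, limma, adjusted p = 0.00181) and higher in PBRT15 (0.79 ± 0.16, limma, adjusted p = 0.0173), there not without parental replicate 1 (0.0824), parental replicate 2 (0.0575) or PBRT15 replicate 2 (0.0521).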

How the data were processed

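Total RNA of 6 cell line samples was the starting material. By the study's supplement, the libraries were made with a variant of a strand-specific mRNA kit and sequenced paired-end. Each file holds 1 value per gene ID. The deposited values are a normalized signal that is not whole counts (at the best single step 24.6 to 53.5% of values were whole within 0.02), and how the authors scaled this signal was not given in the sources used here. The submitters' processing notes name STAR 2.6.1a, RSEM, Picard, DESeq2 and GRCh38. Read depth is unknown, and no interval for counting error is given.

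IDs were matched to GENCODE release 44 without version (60357 of 60617, beside 45 pseudoautosomal copies left out). A gene was tested if, after scaling to the mean library total, it reached 10 in 2 libraries and summed to 15 (16560 genes). The model was limma 3.58.1 in R 4.3.3 on log2(value + 1), which understates changes of low genes, with 3 groups in 6 libraries (3 residual degrees of freedom, 1.89 from the prior), with Benjamini-Hochberg adjustment over all tested genes, and a call needed an adjusted p of at most 0.05. The limma step was also run on simulated whole counts with a capped spread, for PBRT15 against parental cells only. It gives no error rate for the deposited values, which are not whole counts.

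The 48 genes, the other pathway lists, the markers and the 4 printed promoters were chosen with earlier results of these data known. Outside the 48, pathway genes could be named if called and among the 5 largest changes of their list, and only part of those that met this are named. Alternatives changed the pseudocount, filter, scaling, prior, libraries in the fit, genes tested, call rule and pairing. A count-based test was not run.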

Additional observations from a re-analysis of the deposited data

Results flagged for a closer look

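The changes from parental cells in PBRT16 and PBRT15 differed by a test of the difference itself (limma, adjusted p at most 0.05) in 17 genes, given as the log2 difference of PBRT16 minus PBRT15. The nuclear and feedback genes among them were LEF1 at -3.22, AXIN2 at -1.39, NKD2 at -8.32 and NOTUM at 3.67. The receptor genes were FZD1 at -2.04, FZD8 at -1.75, FZD9 at -1.45, LRP5 at -3.23 and LRP6 at -1.07. The ligands were WNT2 at -3.24, WNT5A at -0.71, WNT7B at -3.73 and WNT9A at 2.86. The antagonists were SFRP1 at -2.90, SFRP4 at 1.82, DKK2 at -2.04 and DKK3 at 0.96. DKK2, NKD2 and WNT2 passed the filter on low values only through PBRT15 and NOTUM only through PBRT16, so a difference was built into their being tested, and the size of such a difference depends on the pseudocount (-6.38 to -9.02 for NKD2 across alternatives). The summed fibroblast markers were 19004 and 25336 in PBRT16, against 136610 and 147018 in PBRT15, and their part in these differences was not tested.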

How the results depend on the processing

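No called difference of the 48 genes changed direction in any alternative. With a required fold of 2, the genes lower in PBRT15 than in parental cells numbered 4 in place of 7. Without the filter on low values, 2 genes in place of 4 were higher and 8 in place of 13 lower in PBRT16 than in PBRT15. With only the 4 libraries of both lines in the fit 8 were lower. These 2 settings change the number of genes or libraries tested. Without the filter, NKD1, ZNRF3, FZD5 and TCF7 lost their PBRT15 calls, and NKD2, ZNRF3, WNT2B, FZD6, FZD9 and DKK3 their PBRT16 calls. Between the lines AXIN2, NOTUM, WNT5A, FZD8, FZD9, DKK2, DKK3 and SFRP4 lost theirs. With only the 4 compared libraries in the fit, NKD1 lost its PBRT15 call and NKD2 and FZD9 their PBRT16 calls. AXIN2, NOTUM, WNT5A, FZD8, FZD9 and DKK2 then lost theirs between the lines. With a pseudocount of 0.5, FZD9 and SFRP4 did so. Leaving out 1 library at a time gave 10 to 12 genes higher and 2 to 7 lower in PBRT15, 9 to 12 higher and 7 to 9 lower in PBRT16, and 0 to 4 higher and 8 to 10 lower in PBRT16 relative to PBRT15 (limma, 3 and 6 of the genes higher at an unadjusted p under 0.05 where the count was 0). Libraries left alone in a group were assumed to vary like the others. The shares of all tested genes in these fits are not given, so the counts have no background to be read against. DKK2 and WNT2 went untested without a PBRT15 library, and NOTUM without a PBRT16 library. The replicate numbers gave no pairing of libraries (correlations of deviations 0.14, 0.02 and 0.04). With a replicate block, 13 genes were higher and 5 lower in PBRT15, 13 and 10 in PBRT16, and 4 and 11 in PBRT16 relative to PBRT15; among other pathway genes 3 were higher and 7 lower between the lines in place of 5 and 13. The block ended the calls of NKD1 (adjusted p = 0.0530) and FZD5 (0.0619) in PBRT15, of FZD9 in PBRT16 (0.0704) and between the lines (0.0862), and of DKK2 between the lines (0.0519), and FZD8 passed with it in PBRT15 (0.0247) and PBRT16 (0.0205). For the other pathway genes between the lines, leaving out 1 library gave 1 to 3 higher and 3 to 5 lower, 4 libraries in the fit gave 2 and 4, and no filter gave 2 and 5. Another scaling moved the median of all genes by at most 0.06 on the log2 scale. With 2 libraries per group and an unknown depth, missing the threshold does not show that a gene kept its level.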
